A study of Arabidopsis thaliana with 4 samples.

Results

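The acidic P-proteins form the stalk of the large ribosomal subunit. The 10 genes described here encode P0 (*RPP0A*, *RPP0B* and *RPP0C*), P1 (*RPP1A*, *RPP1B* and *RPP1C*) and P2 (*RPP2A*, *RPP2B*, *RPP2C* and *RPP2D*) of *Arabidopsis thaliana*. They were taken from a fixed list of loci, through the RefSeq accession of each gene probe on the array. All 10 were measured, of 25410 loci on the array, with 28 probes between them. The family was chosen because the signal of *RPP2C* (AT3G28500) was higher in *bli-1* on these same arrays, so the difference of *RPP2C* is given as a description without a test.

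P0 is anchored on the ribosomal RNA of the large subunit and carries dimers of P1 and P2 on its flexible end. The shared acidic C-terminal tail of the 3 proteins reaches the factor binding site and recruits the translational GTPases, among them the elongation factors eEF1A and eEF2, and stimulates their hydrolysis of GTP. Plants also have a P3 protein that animals and yeast lack. In *Arabidopsis* each of the proteins is encoded by several paralogs.

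RNA was taken from whole seedlings of the T-DNA insertion mutant *bli-1* (SAIL_107_D04) and of its wild type Columbia-0 (Col-0), with 2 biological replicates per genotype and 1 single color Agilent array for each. After a stratification of 2 days at 4°C, all seedlings grew on Murashige and Skoog medium with sucrose under continuous light at 20°C until harvest 12 days after germination. No treatment was applied. The *bli-1* line is a single insertion allele of *BLISTER* (*BLI*), whose product interacts with the Polycomb protein CLF. Its seeds germinate later than those of Col-0, and the study's methods have the mutant sown ahead of the wild type for direct comparisons, without repeating this for the arrays.

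The signals below are log2 values after background correction and quantile normalization, and each difference subtracts the Col-0 mean from that of *bli-1*. Of the gene spots, 77.4% and 91.7% were well above background on the arrays of *bli-1* replicates 1 and 2, against 74.7% and 76.4% on those of Col-0. Before correction the *bli-1* arrays were also brighter, with a median gene spot of 208 and 319 intensity units against 139.5 and 187 in Col-0. Dim spots were raised on 1 array only. The 25th percentile of gene spots was 129.5 units for *bli-1* replicate 2. It was 29 for *bli-1* replicate 1, and 27 and 28.5 for Col-0. The array of *bli-1* replicate 1 lay on another slide than the other 3, so that slide and *bli-1* replicate cannot be told apart. *BLI* (AT3G23980), measured by 2 probes, was at 7.43 and 7.73 in *bli-1* and at 9.19 and 9.01 in Col-0 (log2 difference −1.52, adjusted p = 0.0833 from limma). Where these probes lie relative to the insertion is not given in the sources used here. Markers of leaf photosynthesis and of root (4 genes each) were well above background on all 4 arrays. Those of root differed by a median of 0.97 log2 units between the *bli-1* replicates and of 0.23 between the Col-0 replicates. In whole seedlings a lower share of cells of a type and less RNA per cell cannot be told apart.

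*RPP2C* encodes 1 of the 4 P2 paralogs and is represented by a single probe. Its log2 signal was 9.58 and 9.55 in *bli-1* replicates 1 and 2, against 8.60 and 8.04 in Col-0. Both *bli-1* arrays were thus above both Col-0 arrays, as for 22.7% of all loci, and the spread was wider in Col-0. Before correction the spot read 793.5 and 881.5 intensity units in *bli-1*, against 235 and 196 in Col-0. The local background at this spot was 16 and 19 units in *bli-1* and 21 and 17.5 in Col-0, and the probe was well above background on all 4 arrays. *RPP2C* averaged 9.56 ± 0.02 in *bli-1* and 8.32 ± 0.40 in Col-0 (SD, n = 2 each), a log2 difference of 1.24 (standard error 0.22) or 2.36-fold. Over the 4 ways of setting a *bli-1* array against a Col-0 array, the difference ran from 0.94 to 1.54. In order of the difference, *RPP2C* stood at place 174 of 25410 loci.

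Each of the *bli-1* arrays gave nearly the same value for *RPP2C*. Replicate 1 lay 1.26 and replicate 2 lay 1.23 log2 units above the mean of Col-0. No Col-0 array lay on the slide of *bli-1* replicate 1, and an effect of the slide was not tested. The Col-0 arrays mattered more, since without Col-0 replicate 1 the difference was 1.52 and without Col-0 replicate 2 it was 0.96.

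**Figure D1:**
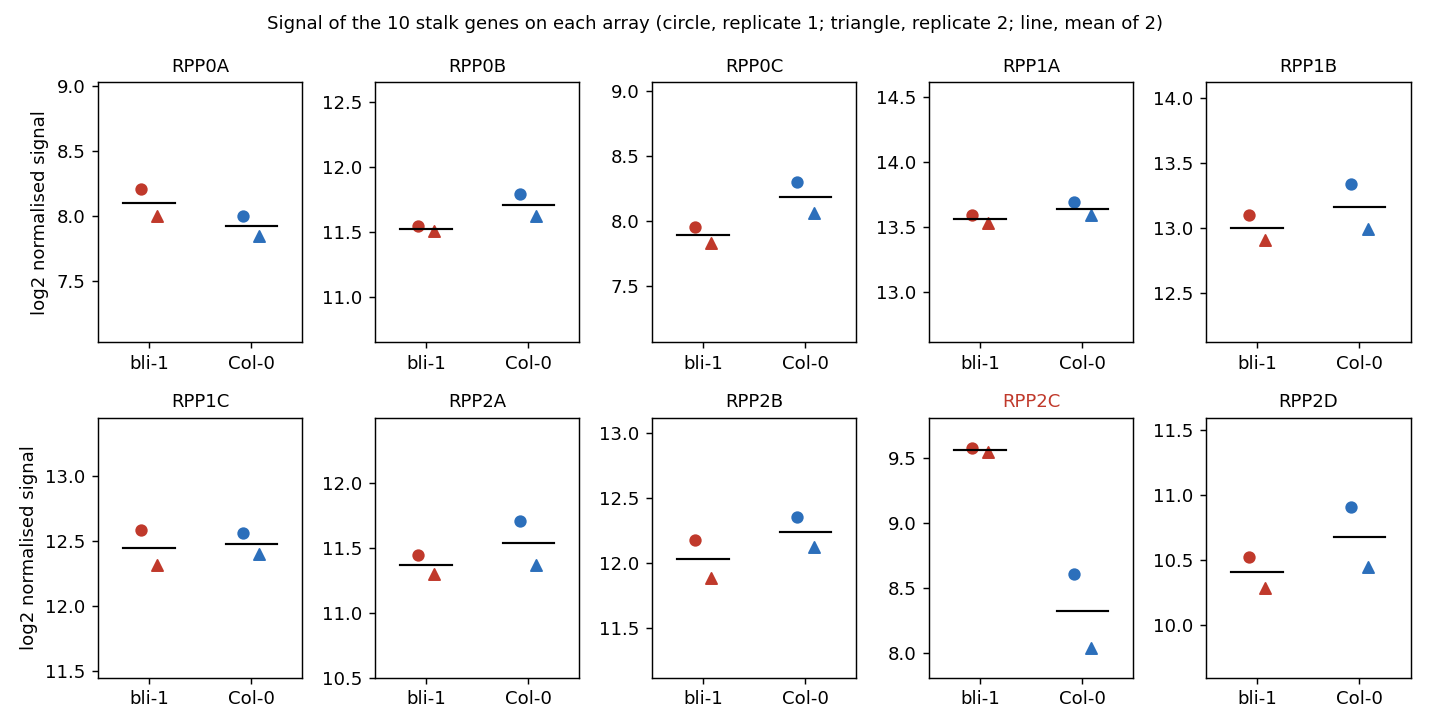
Log2 normalised signal (y axis, spanning 2 units in each panel) of the 10 stalk genes on each array, with *bli-1* left of Col-0, circles for replicate 1, triangles for replicate 2 and lines for the mean. *RPP2C* was at 9.58 and 9.55 in *bli-1*, above 8.60 and 8.04 in Col-0, and in all 10 panels the circle lies above the triangle in both genotypes.

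The 3 other P2 genes all had small negative differences, and none passed the test. *RPP2A* (AT2G27720) and *RPP2B* (AT2G27710) are direct neighbours on chromosome 2, and *RPP2D* (AT3G44590), like *RPP2C*, lies on chromosome 3. *RPP2A* was at 11.44 and 11.30 in *bli-1* and at 11.70 and 11.36 in Col-0. Its difference was −0.16 (95% interval −0.60 to 0.28, adjusted p = 0.724 from limma). *RPP2B* was at 12.18 and 11.88 in *bli-1* and at 12.36 and 12.13 in Col-0. This is a difference of −0.21 (95% interval −0.65 to 0.23, adjusted p = 0.670 from limma). For both genes the arrays of the 2 genotypes overlapped. *RPP2D* had signals of 10.53 and 10.28 in *bli-1* and of 10.91 and 10.45 in Col-0, again with overlap. Its difference was −0.27 (95% interval −0.81 to 0.26, adjusted p = 0.654 from limma).

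Within the P2 branch the difference of *RPP2C* therefore stood 1.46 log2 units above the mean difference of the other 3 genes, which was −0.22. Taken array by array, and relative to the mean of Col-0, the log2 signal of *RPP2C* over the mean of *RPP2A*, *RPP2B* and *RPP2D* was 1.36 and 1.56 in *bli-1* replicates 1 and 2, and 0.11 and −0.11 in Col-0. These ratios are a description and were not tested, since *RPP2C* was chosen for its difference. They do not show which of the transcripts kept its level.

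The 3 P1 genes, whose products pair with P2 in the dimer, also had small negative differences, from −0.16 to −0.03. *RPP1A* (AT1G01100, chromosome 1) was at 13.59 and 13.53 in *bli-1* and at 13.69 and 13.59 in Col-0, a difference of −0.08 (95% interval −0.42 to 0.26, adjusted p = 0.824 from limma). *RPP1B* (AT4G00810, chromosome 4) was at 13.11 and 12.91 in *bli-1* and at 13.34 and 12.99 in Col-0. It differed by −0.16 (95% interval −0.62 to 0.30, adjusted p = 0.737 from limma). *RPP1C* (AT5G47700, chromosome 5) had 12.58 and 12.32 in *bli-1* and 12.56 and 12.40 in Col-0, with a difference of −0.03 (95% interval −0.44 to 0.38, adjusted p = 0.950 from limma). The arrays of the genotypes overlapped for all 3 genes, and none passed the test. The sign of *RPP1C* turned under another scaling, with 0.23 for the scanner software's own signal scaled to the 75th percentile, where the median of all loci was 0.18.

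The P0 genes, which encode the anchor of the stalk, had differences of either sign, and none passed the test. *RPP0A* (AT2G40010, chromosome 2) was the 1 gene besides *RPP2C* with a positive difference. Its signal was 8.21 and 7.9997 in *bli-1* and 8.0018 and 7.85 in Col-0, so that *bli-1* replicate 2 and Col-0 replicate 1 all but coincided. The difference was 0.18 (95% interval −0.21 to 0.57, adjusted p = 0.673 from limma). It was 0.52 with the scanner software's own signal scaled to the 75th percentile, again beside a median of 0.18 over all loci. The raw spot of *RPP0A* read 256 and 322 intensity units in *bli-1* against 140 and 161.5 in Col-0. These raw values still hold the higher brightness of the *bli-1* arrays as a whole.

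*RPP0B* (AT3G09200, chromosome 3) was at 11.54 and 11.51 in *bli-1* and at 11.79 and 11.62 in Col-0. *RPP0C* (AT3G11250, chromosome 3) was at 7.95 and 7.83 in *bli-1* and at 8.30 and 8.07 in Col-0. For these genes both *bli-1* arrays lay below both Col-0 arrays, which was the case for 24.1% of all loci. The differences were −0.18 for *RPP0B* (95% interval −0.54 to 0.17, adjusted p = 0.651 from limma) and −0.29 for *RPP0C* (95% interval −0.68 to 0.10, adjusted p = 0.608 from limma).

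limma called 0 of the 9 genes other than *RPP2C*, with an adjusted p under 0.05 and 1.5-fold or more required, where 0.114% of all loci were called higher and 0.0315% lower (0.102% and 0.0233% with the transcripts that matched no locus included). At an unadjusted p below 0.05 with the same fold change there were also 0 of the 9, against 3.03% of loci higher and 3% lower, and the lowest unadjusted p among the 9 was 0.113. Their differences ran from −0.29 to 0.18 with a median of −0.16, and 8 of the 9 were negative. Over all loci the median was −0.01 and 50.8% were negative. With 2 arrays per genotype the intervals stay wide, down to −0.81 for *RPP2D*, and an exact two-sided permutation test of 1 gene cannot go below 0.333.

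**Figure D2:**
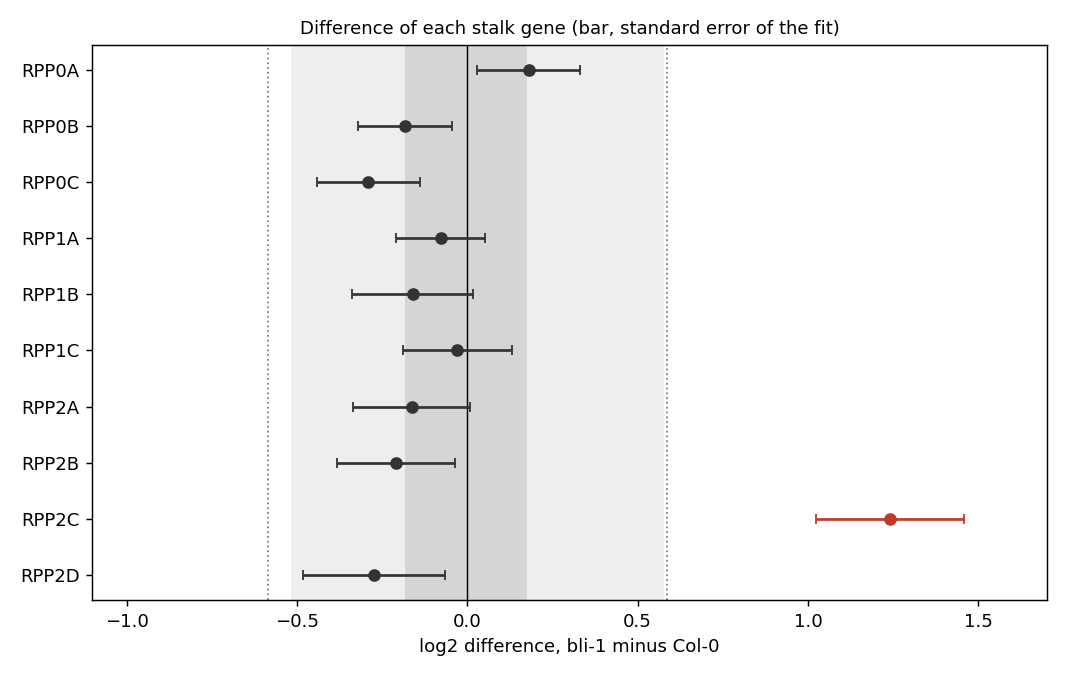
Log2 difference of *bli-1* minus Col-0 (x axis) for each of the 10 genes, with the standard error of the fit as bars, the 25th to 75th and the 5th to 95th percentiles of all loci in dark and light grey, and 1.5-fold as dotted lines. *RPP2C* stands at 1.24, and the other 9 lie between −0.29 and 0.18, inside the light band.

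The probes of a gene gave similar differences in most cases. The 4 probes of *RPP1A* ranged from −0.13 to −0.01, those of *RPP1B* from −0.20 to −0.13 and the 3 of *RPP2D* from −0.32 to −0.21. The 5 probes of *RPP1C* ran from −0.13 to 0.04. Among these was the 1 probe of the 28 that was not well above background on every array, and without it *RPP1C* had a difference of −0.05. The 4 probes of *RPP2B* gave −0.29 to −0.13. The lowest of these came from a dim probe. Before correction and normalization its spot read 45.5 and 70.5 intensity units in *bli-1* and 36.5 and 47 in Col-0.

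The probes of *RPP0B* disagreed most. One probe, designed on another transcript of the gene than the rest, was at 9.86 and 9.98 in *bli-1* and at 10.65 and 10.05 in Col-0, which gave −0.43. The other 3 probes gave −0.11 to −0.09, and the high array for the first was Col-0 replicate 1. *RPP0A*, *RPP0C*, *RPP2A* and *RPP2C* had a single probe each, so no second probe bears on their values. Probe sequences were not used here. Whether a probe also binds the transcript of a close paralog was not tested, and the signals of different probes were not set against each other as levels of expression.

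**Figure D3:**
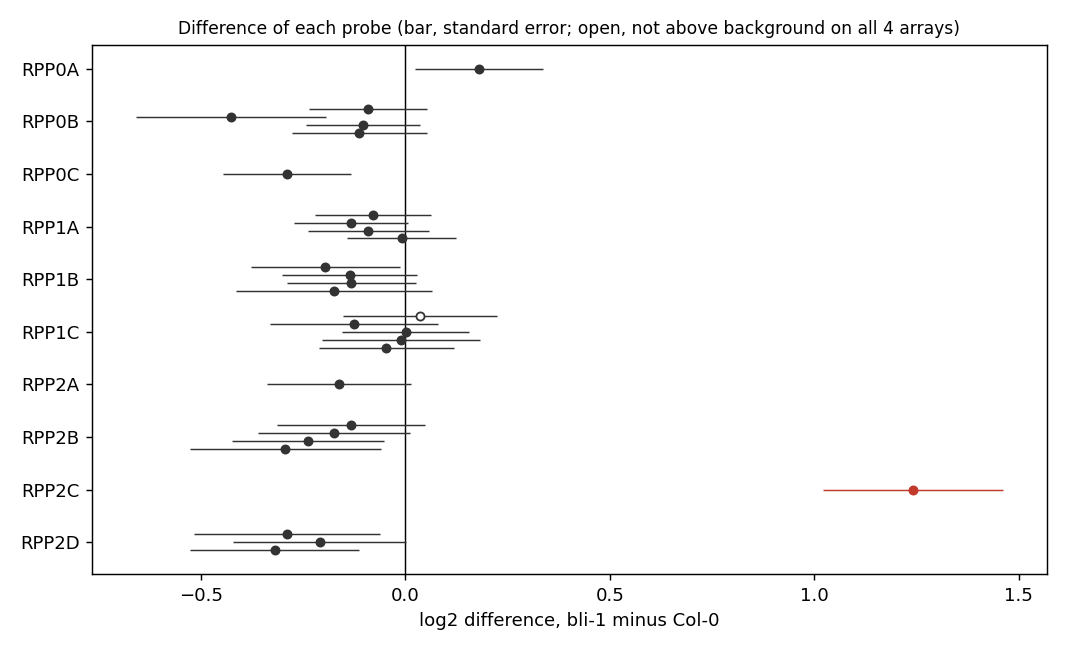
Log2 difference of *bli-1* minus Col-0 (x axis) for each of the 28 probes, grouped by gene, with standard errors as bars and an open symbol for the probe not well above background on all 4 arrays. The single probe of *RPP2C* is at 1.24, and the probes of the other genes lie between −0.43 and 0.18.

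The sizes of the differences depended on the arrays used. In all 10 genes, *RPP2C* included, replicate 1 was above replicate 2 in *bli-1* as well as in Col-0. Over all loci this was the case for 51.4% in *bli-1* and 47.0% in Col-0. Among 34 other cytosolic ribosomal protein genes, replicate 1 was above replicate 2 for 27 in *bli-1* and for 32 in Col-0. Without Col-0 replicate 1 the median difference of the 9 genes was −0.03, with 5 of them negative. Without Col-0 replicate 2 it was −0.33, with 8 negative. Without *bli-1* replicate 2 it was −0.06, with 7 negative, and without *bli-1* replicate 1 it was −0.24, with 8 negative. Since replicate 1 was the higher array throughout, leaving out Col-0 replicate 1 or *bli-1* replicate 2 had to raise every difference. These shifts follow from that order of the arrays, whose cause was not tested. Without Col-0 replicate 1 the difference was 0.01 for both *RPP1B* and *RPP2A*. Over the 4 fits with 1 array left out, *RPP2D* ran from −0.50 to −0.04 and *RPP2B* from −0.36 to −0.06. *RPP0A* ran from 0.07 to 0.29, *RPP0B* from −0.27 to −0.10, *RPP0C* from −0.41 to −0.17 and *RPP1A* from −0.13 to −0.03. These 6 genes kept their sign, while the sizes moved by more than 1.5 times.

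**Figure D4:**
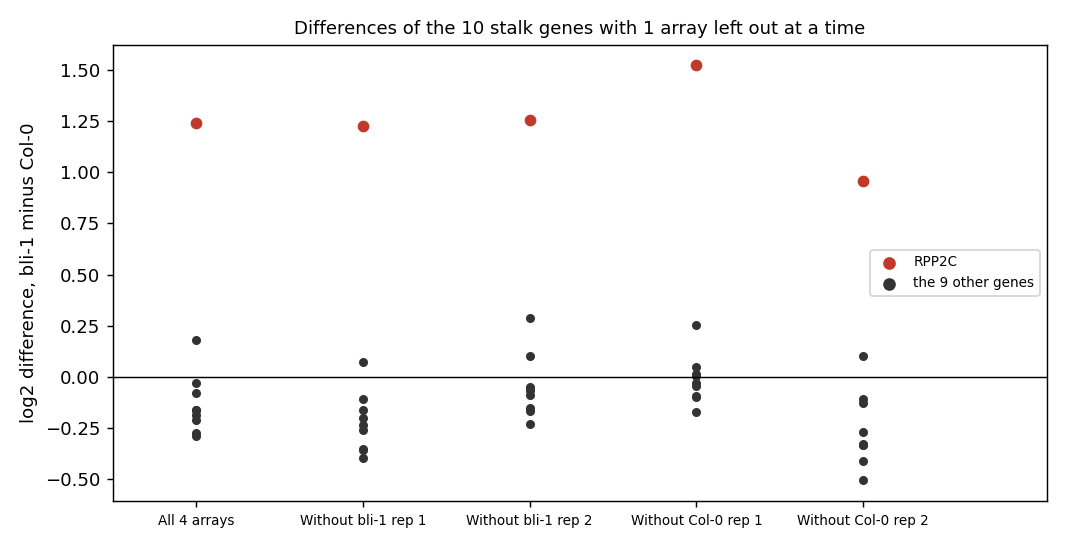
Log2 difference of *bli-1* minus Col-0 (y axis) of the 10 genes with all 4 arrays and with each array left out in turn (x axis). *RPP2C* stays between 0.96 and 1.52, while the median of the 9 other genes is −0.16 with all arrays and −0.03 without Col-0 replicate 1.

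The remaining stalk proteins were set beside these. *RPP3A* (AT4G25890), which encodes a P3 protein, was at 12.33 and 12.22 in *bli-1* and at 12.44 and 12.26 in Col-0, a difference of −0.08 (adjusted p = 0.844 from limma). The other P3 gene, *RPP3B* (AT5G57290), was at 10.52 and 10.67 in *bli-1* and at 10.82 and 10.72 in Col-0, a difference of −0.17 (adjusted p = 0.665 from limma). One more P2 gene, *RPP2E* (AT5G40040), was well above background on 1 array of *bli-1* and on 0 of Col-0, and no fold change is given for it. *RPP2C* was thus the 1 gene with a difference of at least 1.5-fold among the 10 genes, *RPP3A* and *RPP3B*, where 4.83% of loci were that much higher and 3.75% that much lower in *bli-1*.

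The list of stalk and translation factor genes held 19 loci in all, the 3 above included, and limma called 0 of them (0.114% and 0.0315% of loci). The genes *RPL12A*, *RPL12B* and *RPL12C*, which encode the protein uL11 at the base of the stalk, had differences of −0.15 to −0.07. The 4 genes of eEF1A, which delivers aminoacyl-tRNA to the ribosome, lay between −0.12 and 0.02. Of eEF2, which drives translocation, *LOS1* (AT1G56070) had a difference of −0.40 (adjusted p = 0.619 from limma) and AT3G12915 of 0.13 (adjusted p = 0.823 from limma). AT1G25260, which encodes a P0-like factor of ribosome assembly, was at 0.07.

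The list had 1 member past 1.5-fold, AT5G12110, which encodes a subunit of eEF1B, the factor that exchanges GDP for GTP on eEF1A. It was singled out after its values were seen. Its signal was 9.81 and 9.69 in *bli-1* and 10.71 and 10.49 in Col-0, with both *bli-1* arrays below both Col-0 arrays. The gene passed at an unadjusted p below 0.05 with 1.5-fold, as 3% of loci did in the lower direction. The difference was −0.85 (standard error 0.15), which missed the adjusted threshold (adjusted p = 0.172 from limma). It was −0.90 without *bli-1* replicate 1, and the same with the slide as a block, which gives that array no weight. Without *bli-1* replicate 2 the difference was −0.79. The 5 other eEF1B genes had differences of −0.12 to 0.13.

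Transcripts of 34 other cytosolic ribosomal protein genes, taken by name from the RefSeq table and a part of that family, were set beside the stalk genes. limma called 0 of the 34 (0.114% and 0.0315% of loci), and 0 passed an unadjusted p below 0.05 with 1.5-fold. Their differences ran from −0.25 to 0.29 with a median of −0.12, and 29 were negative. The highest were *RPL27AB* (AT1G23290) at 0.29, *SAC52* (AT1G14320), which encodes RPL10A, at 0.17 and *RPL18AA* (AT1G29970) at 0.14. The lowest were *RPL10B* (AT1G26910), *RPL3B* (AT1G61580) and *RPL5B* (AT5G39740), each at −0.25. Without Col-0 replicate 1 the median was 0.04 and 15 were negative. The differences of the 9 stalk genes other than *RPP2C*, −0.29 to 0.18, thus covered much the same range as those of the 34.

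**Figure D5:**
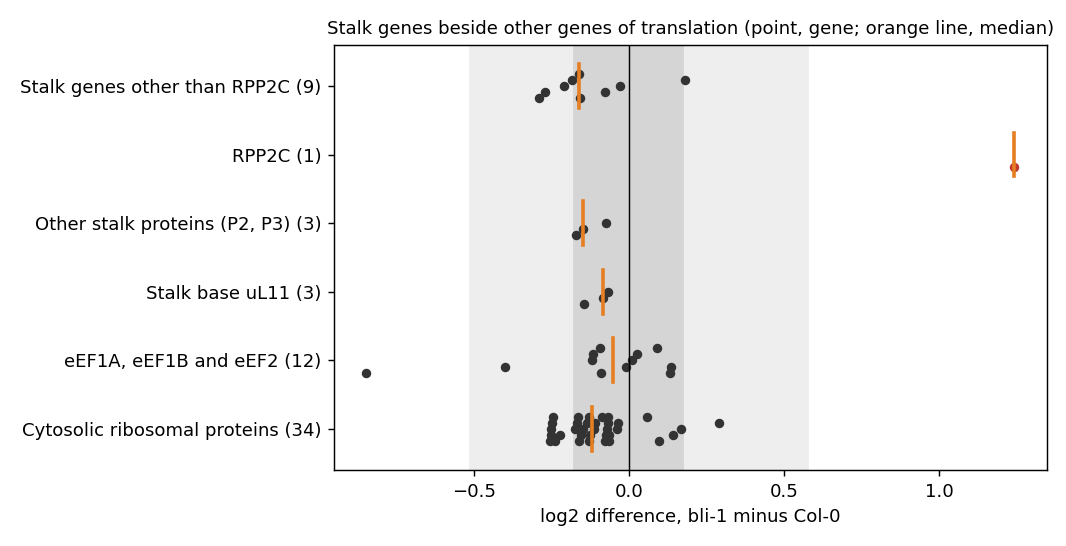
Log2 difference of *bli-1* minus Col-0 (x axis) of the stalk genes and of other genes of translation, with 1 point per gene, the median as an orange line and the 25th to 75th and the 5th to 95th percentiles of all loci in dark and light grey. *RPP2C* (1.24) and AT5G12110 of eEF1B (−0.85) lie outside the light band, and the medians are −0.16 for the 9 other stalk genes and −0.12 for the cytosolic ribosomal proteins.

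Genes whose signal followed *RPP2C* most closely were looked for among the loci with every probe well above background on all 4 arrays. The measure was the root mean square distance of the log2 values over the 4 arrays, after centring each gene on its own mean. The nearest was AT1G43910 (distance 0.07), at 10.24 and 10.08 in *bli-1* and at 9.15 and 8.71 in Col-0. Next came AT4G16660 (distance 0.08), which encodes a protein of the Hsp70 family, with 10.61 and 10.65 in *bli-1* and 9.75 and 9.29 in Col-0. The third was *SVB* (AT1G56580), a gene known for its role in trichome size, with a distance of 0.10. With 4 arrays, any gene of similar difference and similar spread in Col-0 would rank here.

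Among the tested loci next to *RPP2C* on chromosome 3, AT3G28490 on one side was distinguishable from background on 1 array of *bli-1* and 0 of Col-0. On the other side AT3G28510 was at 7.45 and 8.80 in *bli-1* and at 8.37 and 8.87 in Col-0, a difference of −0.50 with overlap (adjusted p = 0.702 from limma). Of the 3 loci on each side, the third after *RPP2C*, AT3G28540, was at 9.72 and 10.43 in *bli-1* and at 8.45 and 8.61 in Col-0. It differed by 1.54 (standard error 0.26) at an adjusted p = 0.167 from limma, and AT3G28520 between them was above background on 1 array of *bli-1* and 0 of Col-0. These neighbours were chosen by position after the values of *RPP2C* were known.

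Markers of other organs and cell states were checked beside the stalk genes. The 4 markers of dividing cells, in which ribosomal protein genes are strongly expressed, had a median difference of −0.30, from −0.40 for *MCM2* to 0.16 for *CYCB1;1*, and 0 were called. The 4 flower markers had a median of 0.73, and 0 were called. *SEP3* was at 1.62 (adjusted p = 0.0801 from limma) and *PI* at 1.19 (adjusted p = 0.0833 from limma). *AP3*, at 0.20, was above background on 2 arrays of *bli-1* and 1 of Col-0. *AG* was above background on 2 arrays of *bli-1* and 0 of Col-0, so the median includes values near background. Of the 4 pollen markers 1, *AGP6*, and of the 4 seed markers 1, *EM6*, were well above background on all 4 arrays. *EM6*, a gene of late seed maturation, was at 7.11 and 8.72 in *bli-1* and at 6.86 and 6.74 in Col-0, a difference of 1.12 (adjusted p = 0.575 from limma). *AGP6* was at 7.22 and 6.69 in *bli-1* and at 7.91 and 7.30 in Col-0, a difference of −0.65 (adjusted p = 0.561 from limma). The 4 root markers had a median of −0.39, with 3 negative and 1 positive, *PHT1;1* at 0.44 with overlap of the arrays. The lowest, *COBL9* of root hairs, was at 9.95 and 8.80 in *bli-1* and at 10.24 and 9.95 in Col-0. Its difference was −0.73 (adjusted p = 0.613 from limma). The summed normalised signal, on the linear scale, of the flower markers was 963 and 1113 in *bli-1* and 474 and 513 in Col-0, and that of the dividing cell markers was 1375 and 1417 in *bli-1* and 1789 and 1573 in Col-0. Their part in the difference of *RPP2C* was not tested.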

How the data were processed

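Total RNA of whole seedlings was labelled with Cy3 through oligo-dT priming and hybridised to single color Agilent arrays of Arabidopsis. The files the authors deposited hold scanner intensity values per spot, from Agilent Feature Extraction 11.0.1.1 with an annotation of TAIR10, and are not normalised. From them the median spot intensity and its local background were corrected with normexp (offset 50) and quantile normalised in limma 3.58.1 (R 4.3.3), as the study's methods name background correction and quantile normalization without the settings. Control spots were left out and outlier spots (4 to 19 per array) set to missing. Spots were averaged to probes and probes to genes on the log2 scale. Of 35703 spots with a RefSeq accession, 34432 matched a locus of the RefSeq table (TAIR10.1). That table gave names and the start positions that ordered neighbouring loci, and the locus identifiers gave the chromosomes.

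lmFit and eBayes were fitted to all 34290 genes and transcripts, without covariates, with Benjamini-Hochberg adjustment over all of them. A call needed an adjusted p below 0.05 and at least 1.5-fold. All p-values in the report come from this fit unless named otherwise. The fit was tested on simulated data. No spot was saturated. Precision is limited by having 2 arrays per genotype.

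Named were all 10 genes, *RPP2E*, *RPP3A*, *RPP3B*, called genes of both lists, the 3 highest and lowest cytosolic ribosomal protein genes, the 3 loci nearest to *RPP2C* and *BLI*. Other genes were named after their values were seen. The members and lists were chosen with earlier results of these data known. The cytosolic list holds the genes that the RefSeq names mark as such, and covers a part of these proteins. Sequences of probes and genes were not used here. Alternatives changed the background correction, scaling, dim or outlier spots, probe choice, variance model, slide or replicate block, and left out each array in turn, where the lone array of a genotype was taken to vary like the others.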

Additional observations from a re-analysis of the deposited data

How the results depend on the processing

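*RPP2C* kept its direction under every alternative run, with log2 differences of 0.96 (without Col-0 replicate 2) to 1.52 (without Col-0 replicate 1). Probe filters, the variance model and the replicate block could not move its single probe from 1.24. Leaving out an array or blocking the slide could not turn the sign, since the closest *bli-1* and Col-0 arrays differed by 0.94. Runs with another background correction, spot signal or scaling could have turned it, and gave 1.26 to 1.43. Of the 9 other genes 0 were called under any run, which says little for the runs where 0 loci were called. Signs turned for small differences only. *RPP1C* was at 0.23 with the scanner software's signal scaled to the 75th percentile, at 0.00023 with its brightest probe, at 0.10 without *bli-1* replicate 2 and at 0.05 without Col-0 replicate 1. When 1 array was left out, *RPP1C* ran from −0.16 to 0.10, *RPP1B* from −0.33 to 0.013 and *RPP2A* from −0.33 to 0.0056. The highest values of *RPP1B* and *RPP2A* were those without Col-0 replicate 1.

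The number of loci called depended strongly on the processing, against 29 higher and 8 lower. There were 0 and 0 with a normexp offset of 0, with plain subtraction, with the software's signal under either scaling, and with normexp at the 75th percentile. An offset of 16 gave 8 and 1. Leaving out dim probes gave 87 and 32, keeping probes above background on all 4 arrays (chosen after seeing the data) 87 and 34, the brightest probe 40 and 15, and eBayes with trend and robust options 78 and 36. The slide as a block, which leaves *bli-1* replicate 1 without weight, gave 2088 and 1898, and an unadjusted p gave 770 and 762. Leaving out 1 array gave 0 to 2088 higher and 0 to 1898 lower. In the stalk and elongation factor list 1 gene, AT5G12110, was called lower with an unadjusted p. It was also called with the slide block, where *bli-1* rests on 1 array. The causes were not tested beyond this construction.

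The labels do not tie the replicate numbers together, and deviations of same-numbered arrays correlated at 0.07. With the replicate number as a block, 1 locus was called higher and 0 lower. Each genotype has 1 array of each number, so this block cannot change a difference, and *RPP2C* is at 1.24 by construction. None of the other stalk genes and no gene of the lists was called with or without the block.

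A single probe, 2 arrays per genotype and a *bli-1* array on its own slide limit the value of *RPP2C*.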
